A study of Homo sapiens with 6 samples.

Results

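TNFSF10, which encodes the death ligand TRAIL, was followed with the receptor gene FAS, the TRAIL receptor genes TNFRSF10A, TNFRSF10B and TNFRSF10D, and the caspase genes CASP1, CASP4, CASP8 and CASP10 in SKOV3 cells given cGAMP. The 9 genes were chosen by their symbols, with earlier results of these data known. Each symbol was found once among the 60498 genes of the count table, and all 9 were among the 15126 genes analysed, whose counts averaged 10 or more across the 6 libraries.

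SKOV3 is an established ovarian cancer cell line. Its parent cells (WT/HAQ) carry 1 WT allele and 1 HAQ allele of STING1, the receptor for the cyclic dinucleotide cGAMP, and HAQ is a haplotype that changes 3 amino acids of the protein. In edited cells the allele left was either WT (WT/-) or HAQ (HAQ/-), so the lines ask how the response to cGAMP differs between the haplotypes. In each of the 3 lines, 1 control library was paired with 1 library of cells given cGAMP at 10 μg/mL for 30 min and then rested for 4 h. These times follow the study's methods, whereas the labels describe a harvest right after treatment, so the time point of the folds is not settled. The alleles were removed with a pair of guide RNAs and Cas9 from a lentiviral vector with puromycin selection. Single clones of the edited cells were isolated by limiting dilution, and the methods describe no cloning of the parent. Haplotype and clone therefore cannot be told apart. cGAMP entered the cells through membranes opened with digitonin, and the handling of the control cells is not given in the sources used here, so a fold may hold an effect of handling beside that of cGAMP.

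Total counts of the parent line were 17608427 without and 16719760 with cGAMP. WT/- had totals of 17060673 and 12444791, and HAQ/- of 17022765 and 13686475. Levels below are normalized counts, which are counts scaled to a common library size with edgeR's TMM factors. No line and treatment has a replicate, so intervals for single genes are 95% Wilson intervals of the counts that cover counting error only, and the spread between cultures is in none of them. A gene was counted as raised or lowered in a line when its level in the cGAMP library was at least 1.5-fold above or below that in the control library of the same line. All 8 epithelial markers examined were measured in these libraries, with 113102 summed normalized counts in the WT/HAQ, 88287 in the WT/- and 92084 in the HAQ/- control library. ERBB2 was the most abundant of them. In the cGAMP libraries the sums were 93091, 72836 and 87654 in the same order of lines. Without ERBB2 they went from 45359 to 28577 in WT/HAQ, from 36579 to 26373 in WT/- and from 22837 to 19994 in HAQ/-. PAX8 had folds with cGAMP of 0.291, 0.529 and 0.71, and KRT7 of 0.499, 0.631 and 0.777, in that order of lines. EPCAM had folds of 1.05, 1.07 and 1.09, and CDH1 of 1.47, 0.988 and 1.31. ERBB2 had 0.952, 0.899 and 0.977, KRT8 0.826, 0.869 and 0.98, and KRT18 0.698, 0.768 and 0.873. KRT19 had folds of 0.64, 1.01 and 0.83. PAX8, KRT7, KRT8, KRT18 and ERBB2 thus had folds below 1 in every line. The interval of KRT8 in HAQ/- includes 1 (0.952 to 1.01), as do those of EPCAM in every line. The cause of these lower levels was not tested. KRT19, a keratin of simple epithelia, had 5629.7 normalized counts in the WT/HAQ control library but 364 in WT/- and 414 in HAQ/-. Among the 5 leukocyte markers, 4 had a mean count of at most 3, including PTPRC and CD3E, while CD68 had 409 to 698 normalized counts and rose 1.64-fold in WT/HAQ, 1.52-fold in WT/- and 1.23-fold in HAQ/-. The 3 endothelial markers summed to between 9.72 and 39.2 normalized counts. The 3 fibroblast markers summed to between 945 and 1393 normalized counts, most of them COL1A1 and DCN, while PDGFRB had a mean count of at most 3. Fibroblast markers and CD68 were thus measured in this cell line.

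TRAIL and FAS ligand bind receptors that carry a death domain in the cell. The bound receptors gather the adaptor FADD with the initiator caspases CASP8 and CASP10, which start apoptosis. CASP1 and CASP4 belong to the inflammatory caspases, which cleave gasdermin D and open the cell membrane, and TNFSF10 is a known target of type I interferon.

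STING1, the edited gene, had 669 normalized counts in the WT/HAQ control library and 1780.2 with cGAMP, 353 and 553 in WT/-, and 213 and 403 in HAQ/-. The parent therefore had the most STING1 RNA and HAQ/- the least, and the part of this level in the responses below was not tested. Of the 9 genes, 4 were raised in WT/HAQ, where 12.8% of all genes were raised, and these were TNFSF10, FAS, CASP4 and CASP10. In WT/- 6 of 9 were raised, against 11.9% of all genes, with CASP1 and CASP8 in addition to those 4. In HAQ/- 3 of 9 were raised, against 6.75% of all genes, namely TNFSF10, CASP1 and CASP10. TNFRSF10D was the 1 gene lowered in WT/HAQ, where 12.3% of all genes were lowered. None was lowered in WT/- or HAQ/-, where 8.77% and 5.76% of all genes were. The median log2 fold of the 9 genes was 0.39 in HAQ/-, 0.82 in WT/- and 0.55 in WT/HAQ, and that of all genes lay between -0.01 and 0.00.

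**Figure D1:**
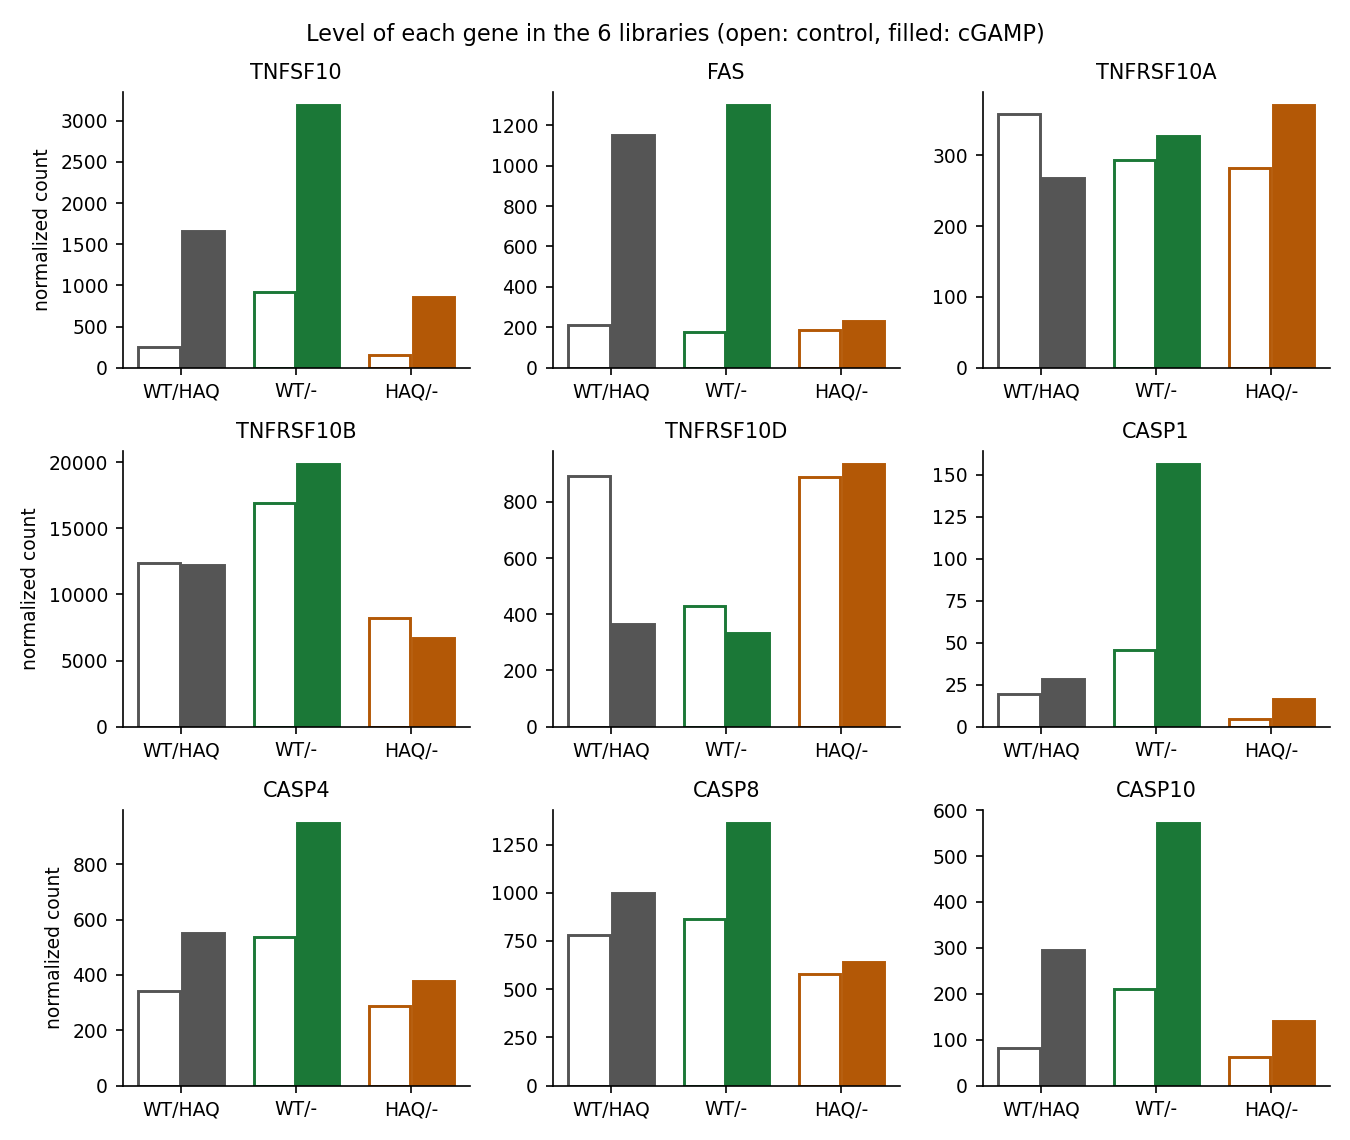
Normalized counts (vertical axis, from 0, with a scale of its own for each gene) of the 9 genes in the 6 libraries, open bars for control and filled bars for cGAMP, with 1 library per bar. FAS stands at 176 to 231 in all control libraries and in the HAQ/- cGAMP library, and at 1154 and 1299.6 in the other cGAMP libraries.

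The panels of bars give the level of each gene in each library. TNFSF10, CASP1, CASP4, CASP8 and CASP10 have their highest bar in the WT/- cGAMP library and their lowest in the HAQ/- control library. TNFRSF10D has its highest bar in the HAQ/- cGAMP library.

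TNFSF10 (ENSG00000121858) is read from the minus strand of chromosome 3 (GRCh38, 172505508 to 172523475), and its main transcript has 5 exons and 1876 bases. It encodes the only ligand among the 9 genes. The ligand had 256 normalized counts in the WT/HAQ control library and 1666 with cGAMP, 925 and 3189 in WT/-, and 158 and 855 in HAQ/-. Every cGAMP library was above the control library of its line, but the groups overlapped, since the WT/- control library was as high as the HAQ/- cGAMP library (ratio 1.08, 0.985 to 1.19). The cGAMP level was 6.50-fold that of the control in WT/HAQ (5.74 to 7.36), 3.45-fold in WT/- (3.2 to 3.71) and 5.41-fold in HAQ/- (4.61 to 6.36). HAQ/- thus had a larger fold than WT/- from a lower starting level. Across the lines TNFSF10 rose, with an average log2 fold of 2.29 (standard error 0.19, edgeR adjusted p = 0.00999, higher in 3 of 3 lines). In bulk RNA, a level summed over more responding cells and more RNA per cell cannot be told apart.

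The response of TNFSF10 did not differ detectably between the lines with a WT allele and HAQ/-, with a difference in log2 fold of -0.23 (standard error 0.35, edgeR adjusted p = 0.975). From counting error alone, the interval of WT/- minus HAQ/- was -0.91 to -0.39 and that of WT/HAQ minus HAQ/- was -0.03 to 0.56. Between the lines with a WT allele, the interval of WT/HAQ minus WT/- was 0.71 to 1.12. The adjusted p of the average was 7.5e-23 with DESeq2 and ranged up to 0.361 over 9 alternatives. Without the WT/- line edgeR gave 0.105, where no gene of the whole table passed, and it was 0.361 when the lines were not used as blocks.

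Promoter windows of 300 bases, from 250 before to 50 after an annotated start, were taken from a table of RefSeq promoters (GRCh38.p14), in which windows of 4 of the 9 genes were used: TNFSF10, FAS, CASP4 and CASP8. Those of TNFSF10 and CASP4, which each passed the treatment test, and of FAS, whose response differed between the lines, are printed 5′ to 3′ on the strand of the gene where they hold a match. Capitals mark matches, on either strand, to the core of the interferon-stimulated response element (ISRE core, GAAANNGAA), to a core bound by interferon regulatory factors (IRF core, AANNGAAA), to the gamma-activated sequence (GAS, TTCNNNGAA) or to the NF-kB consensus. The ISRE and IRF cores share letters, so that an ISRE core followed by A holds an IRF core. The window of TNFSF10, chr3:172523381-172523680 on the minus strand, ends inside the first exon.
TNFSF10: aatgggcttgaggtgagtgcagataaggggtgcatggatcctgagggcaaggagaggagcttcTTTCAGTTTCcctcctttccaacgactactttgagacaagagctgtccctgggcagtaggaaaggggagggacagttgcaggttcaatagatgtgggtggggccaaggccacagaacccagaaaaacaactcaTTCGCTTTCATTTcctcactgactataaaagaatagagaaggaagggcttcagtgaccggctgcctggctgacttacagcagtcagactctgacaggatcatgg
This window holds 2 ISRE cores and 2 IRF cores, in overlapping pairs. The ISRE cores lie from -186 to -178 and from -54 to -46, counted from the start site, and the IRF cores from -187 to -180 and from -49 to -42. An ISRE core was found in 8.11% and an IRF core in 22.8% of all 35116 promoter windows.

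FAS (ENSG00000026103) lies on the plus strand of chromosome 10, from 88953813 to 89029605, and encodes the receptor of FAS ligand. It had 209 normalized counts in the WT/HAQ control library and 1154 with cGAMP, 176 and 1299.6 in WT/-, and 188 and 231 in HAQ/-. The cGAMP libraries of the lines with a WT allele were far above all others. The 3 control libraries and the HAQ/- cGAMP library could not be ordered by neighbouring pairs at this depth, with ratios from 1.07 to 1.11 whose intervals include 1. The fold was 5.51 in WT/HAQ (4.79 to 6.33), 7.37 in WT/- (6.31 to 8.61) and 1.23 in HAQ/- (1.01 to 1.48).

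The response of FAS was smaller in HAQ/- than in the lines with a WT allele, by a log2 fold of 2.37 (standard error 0.25, edgeR adjusted p = 0.00528). The HAQ/- side of this test is 1 line without a replicate, and HAQ/- is assumed to vary like the lines with a WT allele. The spread used comes from those lines and, since edgeR moderates each gene's spread with that of all genes tested, in part from other genes. Of the 9 genes, 1 passed this test of the difference, where 1.01% of all genes had a smaller response in HAQ/-. The call was kept under 4 alternatives, with adjusted p from 8.3e-06 to 0.0230. The average over the lines, a log2 fold of 1.95, did not pass (standard error 0.51, edgeR adjusted p = 0.101, higher in 3 of 3 lines). Without HAQ/- the average was 2.66 with an edgeR adjusted p of 1.7e-05, in a range from 1.7e-05 to 0.427 over 9 alternatives. The deposited counts of FAS were fractional in 3 libraries, by at most 0.47 of a count from a whole number. Of the genes that overlap FAS, ACTA2 on the opposite strand had at most 75 counts in any library. STAMBPL1 on the same strand had 31 counts in the WT/HAQ control library and 65 with cGAMP, 33 and 71 in WT/-, and 27 and 33 in HAQ/-. Reads shared by both genes may be split between them.

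The 3 RefSeq windows of FAS are placed at different start sites. The window at the start of the main transcript holds no match to the 4 motifs. The second window, chr10:88990664-88990963, starts 116 bases further on, and the third, chr10:88991181-88991480, 633 bases further on, where 43 of 61 annotated FAS transcripts span it.
FAS window 2: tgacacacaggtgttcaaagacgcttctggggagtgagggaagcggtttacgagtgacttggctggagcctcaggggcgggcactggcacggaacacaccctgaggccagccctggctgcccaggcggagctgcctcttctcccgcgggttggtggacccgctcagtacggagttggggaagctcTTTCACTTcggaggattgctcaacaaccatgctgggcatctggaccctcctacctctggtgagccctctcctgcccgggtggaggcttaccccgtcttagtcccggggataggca
FAS window 3: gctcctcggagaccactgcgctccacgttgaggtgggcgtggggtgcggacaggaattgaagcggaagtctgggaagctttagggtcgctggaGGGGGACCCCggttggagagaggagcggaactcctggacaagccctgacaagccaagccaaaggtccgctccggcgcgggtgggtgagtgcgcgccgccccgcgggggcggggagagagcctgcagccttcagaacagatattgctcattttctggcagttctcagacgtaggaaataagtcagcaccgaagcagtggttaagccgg
Window 2 holds 1 IRF core from -65 to -58. Window 3 holds the NF-kB consensus, which occurs in 11.3% of all windows, at a single place that reads as a match on both strands, from -157 to -148. No ISRE core or GAS is in the 3 windows.

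The TRAIL receptor genes lie on chromosome 8. TNFRSF10A (ENSG00000104689) and TNFRSF10B (ENSG00000120889) encode receptors that carry a death domain, and TNFRSF10D (ENSG00000173530) encodes a decoy with a truncated death domain. None of the 3 passed the edgeR treatment test. TNFRSF10B had 12352 normalized counts in the WT/HAQ control library and 12211 with cGAMP, 16898 and 19862 in WT/-, and 8208 and 6673 in HAQ/-. Its libraries were ordered by line, with both WT/- libraries at the top and both HAQ/- libraries at the bottom. The fold with cGAMP was 0.989 in WT/HAQ (0.965 to 1.01), 1.18 in WT/- (1.15 to 1.2) and 0.813 in HAQ/- (0.787 to 0.840). RHOBTB2, which overlaps TNFRSF10B on the opposite strand, had at most 716 counts in a library. The response difference of TNFRSF10B, 0.41 in log2 fold, had an unadjusted edgeR p of 0.0351 and an adjusted p of 0.452.

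TNFRSF10A had 359 normalized counts in the WT/HAQ control library and 268 with cGAMP, 293 and 327 in WT/-, and 282 and 371 in HAQ/-. No library of TNFRSF10A stood apart from its neighbours in order, and the control and cGAMP groups overlapped. The fold was 0.747 in WT/HAQ (0.642 to 0.869), 1.12 in WT/- (0.945 to 1.32) and 1.32 in HAQ/- (1.13 to 1.53). Its average log2 fold was 0.04 (edgeR adjusted p = 0.905), and its deposited counts were fractional in 2 libraries.

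TNFRSF10D had 893 normalized counts in the WT/HAQ control library and 364 with cGAMP, 430.2 and 335 in WT/-, and 887 and 935 in HAQ/-. The decoy was high in both HAQ/- libraries and in the WT/HAQ control library, and low in the other 3. The fold was 0.408 in WT/HAQ (0.362 to 0.459), 0.779 in WT/- (0.668 to 0.909) and 1.05 in HAQ/- (0.962 to 1.15). The average log2 fold of -0.52 had an edgeR adjusted p of 0.299. Without HAQ/- it was -0.86 with an adjusted p of 0.0243, in a range from 0.0243 to 0.852 over 9 alternatives. The difference between the lines with a WT allele and HAQ/- was -0.93 (standard error 0.33), with an unadjusted edgeR p of 0.0215 and an adjusted p of 0.353.

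CASP8 (ENSG00000064012) and CASP10 (ENSG00000003400), the initiator caspases of the death receptors, lie 4014 bases apart on the plus strand of chromosome 2. CASP10 had 82.2 normalized counts in the WT/HAQ control library and 295 with cGAMP, 210.0 and 572 in WT/-, and 62.8 and 141 in HAQ/-. Each cGAMP library was above the control library of its line, while the WT/- control library was above the HAQ/- cGAMP library. CASP10 rose across the lines by an average log2 fold of 1.5 (standard error 0.15, edgeR adjusted p = 0.0157, higher in 3 of 3 lines). The fold was 3.58 in WT/HAQ (2.84 to 4.52), 2.72 in WT/- (2.32 to 3.2) and 2.25 in HAQ/- (1.69 to 3.0). Over 9 alternatives the adjusted p ranged from 3.1e-08 with DESeq2 to 0.440 with edgeR, which gave 0.267 without the WT/- line and 0.440 without blocks.

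CASP8 had 779 normalized counts in the WT/HAQ control library and 999.9 with cGAMP, 862 and 1361 in WT/-, and 577 and 643 in HAQ/-. The order followed the line as much as the treatment, since both HAQ/- libraries were below all others. The fold was 1.28 in WT/HAQ (1.17 to 1.4), 1.58 in WT/- (1.44 to 1.73) and 1.11 in HAQ/- (0.997 to 1.25). The average log2 fold of 0.39 did not pass (edgeR adjusted p = 0.112, higher in 3 of 3 lines), and without HAQ/- its adjusted p was 0.0151, in a range from 0.0151 to 0.672 over 9 alternatives. CASP8 has 3 RefSeq windows. The window at the start of the main transcript holds no match, a window at a start 2501 bases upstream holds 1 IRF core, and a window at a start 27073 bases upstream holds 1 ISRE core, 1 IRF core and 1 GAS. GAS was found in 7.66% of all windows.

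CASP4 (ENSG00000196954) and CASP1 (ENSG00000137752) lie on the minus strand of chromosome 11, with 56030 bases between them. CASP4, which senses bacterial lipopolysaccharide in the cytosol, had 341 normalized counts in the WT/HAQ control library and 552 with cGAMP, 538 and 948 in WT/-, and 289 and 378 in HAQ/-. The WT/- cGAMP library was the highest, and the WT/- control library was level with the WT/HAQ cGAMP library (ratio 1.03, 0.914 to 1.15). CASP4 rose by an average log2 fold of 0.64 (standard error 0.11, edgeR adjusted p = 0.0489, higher in 3 of 3 lines), just inside the threshold of 0.05. With DESeq2's size factors in edgeR its adjusted p was 0.0503, without WT/HAQ 0.181 and without WT/- 0.369, in a range from 0.00271 to 0.588 over 9 alternatives. The fold was 1.62 in WT/HAQ (1.42 to 1.84), 1.76 in WT/- (1.58 to 1.97) and 1.31 in HAQ/- (1.12 to 1.52). Its RefSeq window, chr11:104968525-104968824 on the minus strand, is placed at the start of the main transcript.
CASP4: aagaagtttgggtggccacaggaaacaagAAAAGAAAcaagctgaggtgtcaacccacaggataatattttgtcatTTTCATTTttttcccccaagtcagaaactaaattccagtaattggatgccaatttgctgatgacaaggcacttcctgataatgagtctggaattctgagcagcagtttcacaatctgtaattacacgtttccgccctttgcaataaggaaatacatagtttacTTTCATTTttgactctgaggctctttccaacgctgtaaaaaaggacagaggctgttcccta
The window of CASP4 holds 3 IRF cores, from -221 to -214, from -174 to -167 and from -11 to -4. It holds no ISRE core, GAS or NF-kB consensus.

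CASP1, the caspase that matures interleukin 1 beta, was the least abundant of the 9 genes per kilobase of transcript in every library. It had 22 counts in the WT/HAQ control library and 30 with cGAMP, 49 and 117 in WT/-, and 5 and 15 in HAQ/-, which are 19.4 and 28.5, 45.7 and 156, and 4.36 and 16.4 normalized counts. Both WT/- libraries were above all others, and the HAQ/- control library was the lowest. The fold was 1.47 in WT/HAQ (0.851 to 2.52), 3.42 in WT/- (2.45 to 4.76) and 3.76 in HAQ/- (1.42 to 9.96, from 5 control counts), so at this depth no response was detectable in WT/HAQ. With a floor of 10 counts the log2 fold in HAQ/- fell from 1.91 to 0.91, below the 1.77 of WT/-, so these 2 lines are not ranked. The average log2 fold of 1.37 did not pass (standard error 0.35, edgeR adjusted p = 0.0954). Without HAQ/- the adjusted p was 0.0483, and over 8 alternatives it ranged from 0.0310 to 0.695. CARD16, a neighbouring gene that shares much of its sequence with CASP1, had 5, 6, 16, 48, 6 and 6 counts in the libraries in that order, and reads shared by these genes may be split between them.

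**Figure D2:**
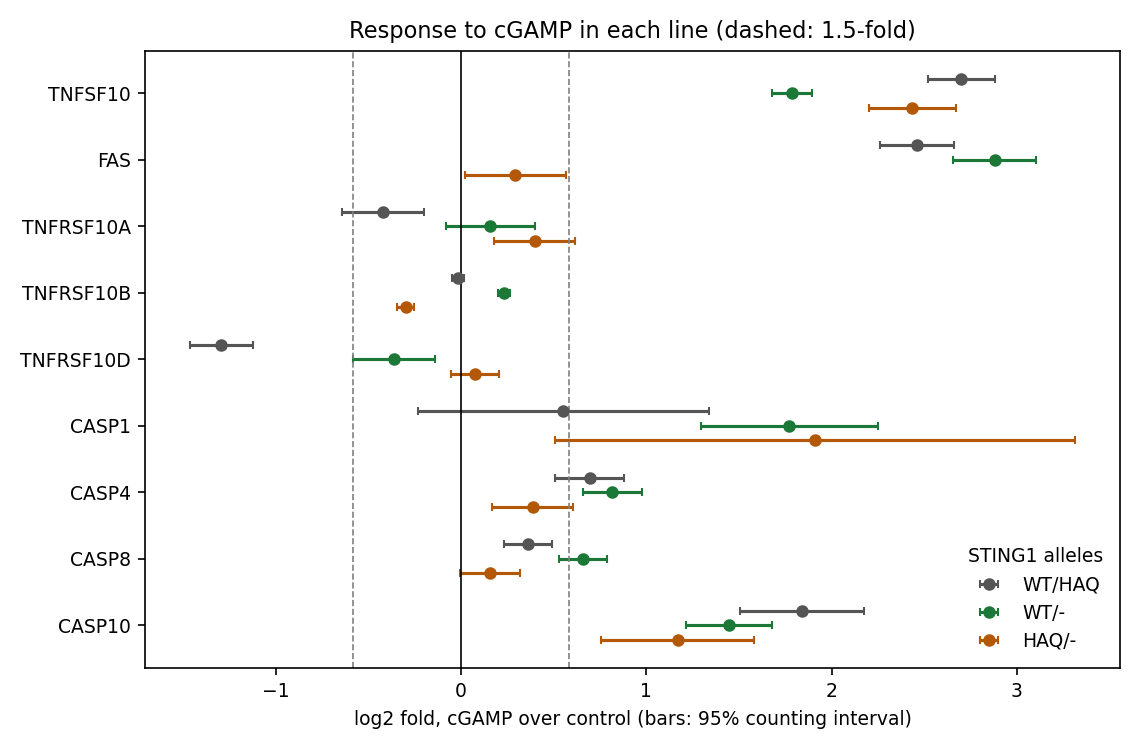
Log2 fold of the cGAMP over the control library (horizontal axis) for the 9 genes in each line, with 95% counting intervals as bars and dashed lines at 1.5-fold. The HAQ/- point of FAS lies at 0.29, apart from 2.46 in WT/HAQ and 2.88 in WT/-, whereas the 3 points of TNFSF10 and of CASP10 all lie above the upper dashed line.

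The plot of log2 folds sets the lines side by side. The HAQ/- point is the lowest for FAS, CASP4, CASP8, CASP10 and TNFRSF10B, and the highest for TNFRSF10A, TNFRSF10D and CASP1. For CASP1 it lies at 1.91 against 1.77 in WT/-, but rests on 5 control counts. The intervals of CASP1 and CASP10 overlap between HAQ/- and WT/-, and those of FAS do not.

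With the line as a block, 3 of the 9 genes were higher with cGAMP in edgeR's treatment test, where 2.27% of all genes were higher. In the other direction edgeR called 0 of 9, against 0.959% of all genes, with 0 at an unadjusted p under 0.05, against 13.7%, and 0 by DESeq2, against 3.85%. At an unadjusted p under 0.05, 6 of the 9 were higher in edgeR, against 11.6% of all genes. DESeq2 called 3 as well, the same TNFSF10, CASP4 and CASP10, where it called 5.1% of all genes higher. Without the WT/HAQ line 2 were called (TNFSF10 and CASP10), against 0.865% of all genes. Without WT/- 0 were called, as in the whole table, with 3 at an unadjusted p under 0.05, against 6.31%. Without HAQ/- 6 were higher and 1 lower, where the whole table also gained calls, with 8.65% of all genes higher and 8.66% lower. In the test of the difference, 0 of 9 had a larger response in HAQ/-, against 0.172% of all genes, with 1 at an unadjusted p under 0.05 (TNFRSF10D), against 3.89%, and 0 by DESeq2, against 0.132%. At an unadjusted p 2 of 9 had a smaller response in HAQ/- (FAS and TNFRSF10B), against 5.5% of all genes.

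The lines differed before cGAMP was given. In the WT/- control library 4 of the 9 genes were at least 1.5-fold higher than in the WT/HAQ control library, where 13.0% of all genes were, and 1 was lower, against 9.87%. TNFSF10 was 3.61-fold higher in WT/- (3.17 to 4.11), CASP10 2.55-fold (2.01 to 3.25), CASP1 2.35-fold (1.43 to 3.87) and CASP4 1.58-fold (1.39 to 1.8). TNFRSF10D stood at 0.482 of the parent's level (0.432 to 0.538). These differences compare 1 library of a clone with 1 library of the parent, and no p-value was computed for them.

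In the HAQ/- control library 0 of 9 genes were higher than in the parent, against 7.37% of all genes, and 3 were lower, against 8.60%. TNFSF10 was at 0.616 of the parent's level (0.512 to 0.741), TNFRSF10B at 0.664 (0.647 to 0.682), near the limit of 1.5-fold, and CASP1 at 0.224 (0.0879 to 0.572). FAS differed little between the control libraries, at 0.842 of the parent's level in WT/- (0.696 to 1.02) and 0.90 in HAQ/- (0.748 to 1.08).

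**Figure D3:**
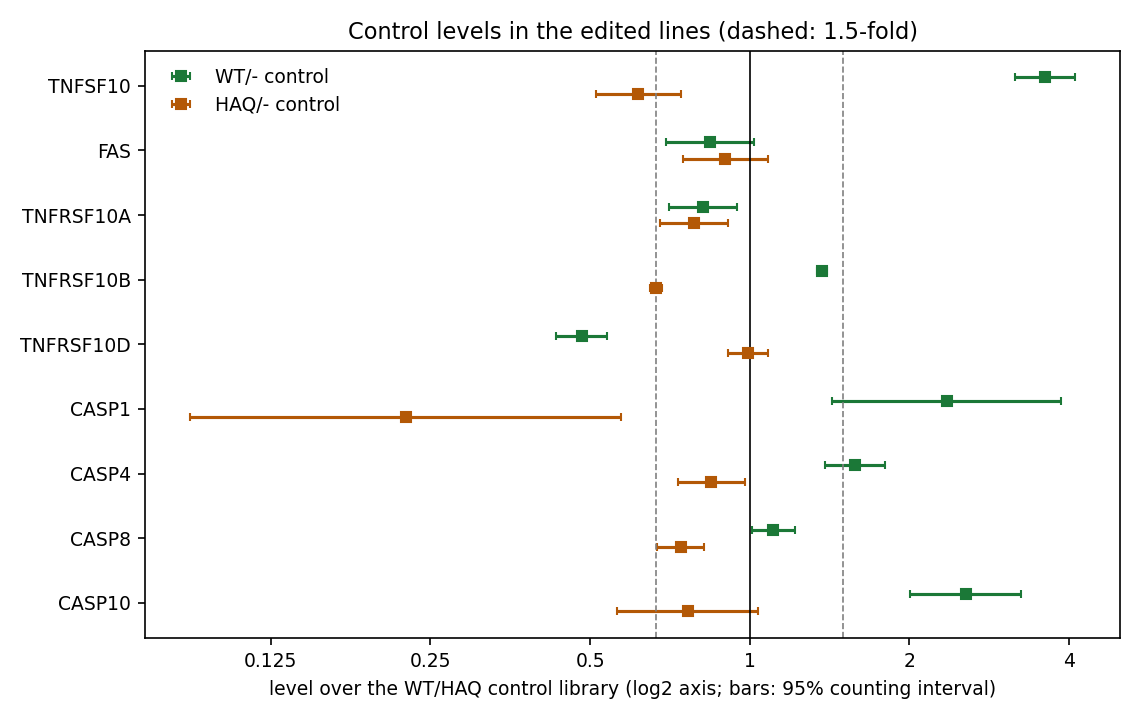
Level of the 9 genes in the WT/- and HAQ/- control libraries over that in the WT/HAQ control library (horizontal log2 axis), with 95% counting intervals as bars and dashed lines at 1.5-fold. TNFSF10 lies at 3.61 in WT/- and 0.616 in HAQ/-, on either side of 1, and FAS lies within the dashed lines in both.

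The plot of control levels places TNFSF10, TNFRSF10B, CASP1, CASP4, CASP8 and CASP10 to the right in WT/- and to the left in HAQ/-. The HAQ/- interval of CASP10 includes 1 (0.562 to 1.04). Set against HAQ/- directly, the WT/- control library had 5 of the 9 genes higher, where 15.3% of all genes were, and 1 lower, against 11.6%. TNFSF10 was 5.86-fold higher (5.0 to 6.86), CASP1 10.5-fold (4.30 to 25.5) and TNFRSF10B 2.06-fold (2.01 to 2.11). In the cGAMP libraries, 7 of 9 were higher in WT/- than in HAQ/-, where 19.0% of all genes were, and 1 was lower, against 12.4%. FAS was then 5.63-fold higher (4.85 to 6.53), TNFRSF10B 2.98-fold (2.89 to 3.07) and CASP8 2.12-fold (1.91 to 2.34). TNFRSF10D, the decoy, was the gene lower in WT/- in both comparisons, at 0.485 (0.434 to 0.541) without and 0.359 (0.312 to 0.413) with cGAMP.

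Levels were compared between genes as normalized counts per kilobase of the main transcript. TNFRSF10B was the most abundant of the 9 in every library, with 3089.5 per kilobase in the WT/HAQ control library and 4968 in the WT/- cGAMP library. The other receptors were lower. In the WT/HAQ control library TNFRSF10D had 253 per kilobase, TNFRSF10A 133 and FAS 56.7. TNFSF10 went from 137 per kilobase, where 4 of the 9 were above it, to 888 in the WT/HAQ cGAMP library, behind only TNFRSF10B. In the WT/HAQ libraries CASP1 had 9.74 and 14.3 per kilobase and CASP10, next above it, 14.5 and 52.0. In the WT/- cGAMP library the TRAIL gene had 1700.2 per kilobase and FAS 352, and in the HAQ/- cGAMP library they had 456 and 62.5.

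Of 51 other genes of the death receptor, necroptosis and pyroptosis pathways, 50 were in the table and 38 were analysed. In edgeR's treatment test 2 of the 38 were higher with cGAMP, 2 were lower and 34 did not pass, where 2.27% of all genes were higher and 0.959% lower. The called genes were 1 of 4 death ligands, the 1 necroptosis gene analysed and 2 of 12 inflammasome and pyroptosis genes. MLKL, which permeabilizes the membrane in necroptosis, had 210.4, 252 and 235 normalized counts in the control libraries of WT/HAQ, WT/- and HAQ/- and 611, 759 and 424 with cGAMP (average log2 fold 1.33, edgeR adjusted p = 0.0268, and over 9 alternatives from 1.3e-07 with DESeq2 to 0.309 with edgeR). AIM2, a sensor of cytosolic DNA, went from 10 to 424 counts in WT/HAQ, from 10 to 144 in WT/- and from 3 to 19 in HAQ/- (edgeR adjusted p = 0.00924). Over 9 alternatives its adjusted p ranged from 6.47e-14 with DESeq2 to 0.201 with edgeR. MLKL and AIM2 were both higher in 3 of 3 lines, but without the WT/- line edgeR called none of the 4, and without WT/HAQ it lost MLKL.

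TNF, the founding ligand of the family, was lower with cGAMP, at 661, 4620.5 and 154 normalized counts in the control libraries and 178, 2010.1 and 70.1 with cGAMP. IL1B, the substrate of CASP1, was lower as well, at 411, 2101 and 40.1 without and 91.2, 689 and 17.5 with cGAMP. Their average log2 folds were -1.43 for TNF (edgeR adjusted p = 0.0229) and -1.77 for IL1B (edgeR adjusted p = 0.0138), and both were lower in 3 of 3 lines. Over 9 alternatives the adjusted p of TNF ranged from 4.97e-10 with DESeq2 to 0.874 with edgeR. That of IL1B ranged from 9.85e-11 with DESeq2 to 0.804 with edgeR. Like TNFSF10, both had their highest control level in WT/- and their lowest in HAQ/-. TNFAIP3, an inhibitor of NF-kB signaling, had the same order of control levels, at 10044, 30554 and 1207, with an average log2 fold of -1.08 that did not pass (edgeR adjusted p = 0.0633, and over 9 alternatives from 2.5e-05 with DESeq2 to 0.951 with edgeR).

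In the test of the difference, edgeR called 0 of the 38 with a smaller response in HAQ/-, against 1.01% of all genes. At an unadjusted p under 0.05 there were 3, where 5.5% of all genes were, and DESeq2 called 0, against 0.886%. RIPK1, a kinase of the receptor complex, was 1 of those 3. It had 1352 and 3832 normalized counts in WT/HAQ, 1418 and 3295 in WT/-, and 1176 and 1641 in HAQ/-. Its log2 fold was 1.5 in WT/HAQ (1.42 to 1.59), 1.22 in WT/- (1.12 to 1.31) and 0.48 in HAQ/- (0.37 to 0.59). The difference of 0.88 did not pass (standard error 0.18, edgeR adjusted p = 0.0817, and over 4 alternatives from 0.00974 with edgeR to 0.283 with DESeq2). A larger response in HAQ/- was called for 0 of the 38, against 0.172% of all genes, with 1 at an unadjusted p under 0.05, against 3.89%, and 0 by DESeq2, against 0.132%.

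**Figure D4:**
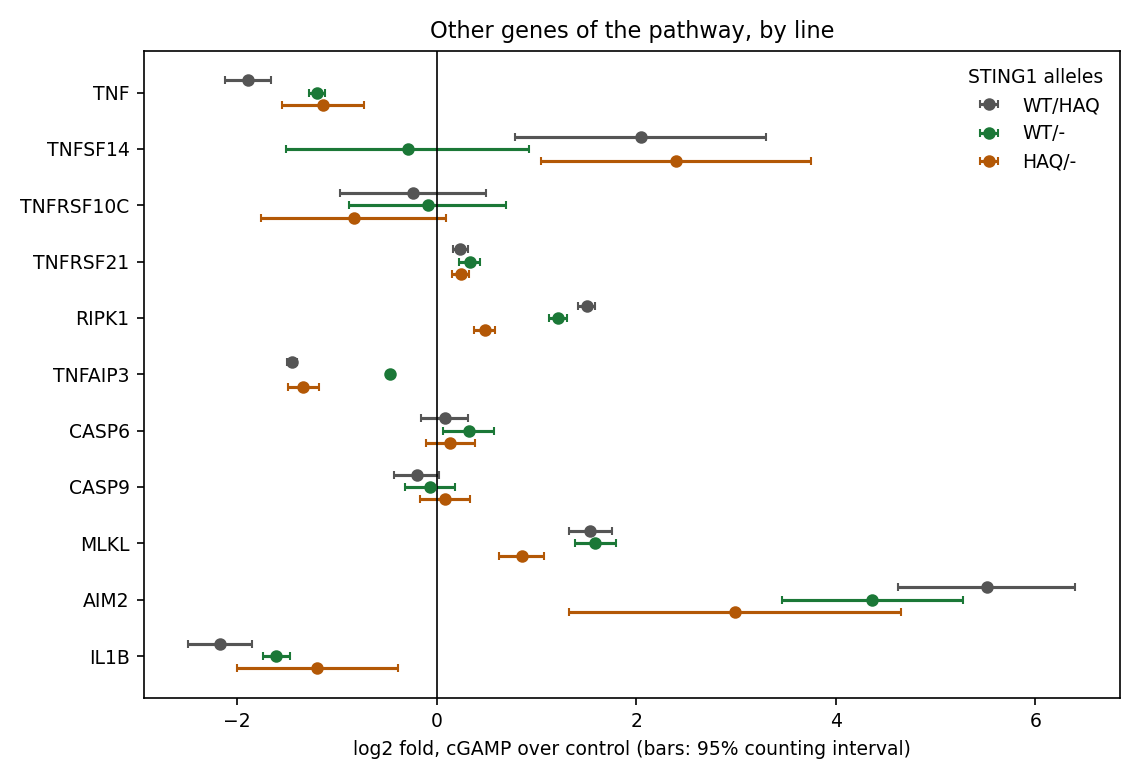
Log2 fold of the cGAMP over the control library (horizontal axis) for 11 other genes of the pathway in each line, with 95% counting intervals as bars. RIPK1 lies at 0.48 in HAQ/- but at 1.5 in WT/HAQ and 1.22 in WT/-, while TNF and IL1B lie to the left of 0 in every line.

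The plot of other pathway genes also shows the decoy receptor gene TNFRSF10C, with log2 folds of -0.24, -0.09 and -0.83 and intervals that include 0 in every line. TNFRSF21, a death receptor, had 0.24, 0.33 and 0.24. The caspase genes CASP6 and CASP9 moved little, with log2 folds of 0.08, 0.32 and 0.14 for CASP6 and -0.20, -0.07 and 0.08 for CASP9. TNFSF14, a ligand with at most 23 counts in a library, had 2.04, -0.29 and 2.40. FASLG, the gene of the ligand of FAS, had at most 2 counts in a library, and CASP5 and CASP14 had 0 counts in all 6.

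The genes with log2 folds closest to those of a member were found by the root mean square difference over the 3 lines among genes that averaged 50 counts or more. For TNFSF10 these were DTX3L, IRF9 and TRIM21, at differences of 0.22 to 0.26. FAS had PRDM6, LIN54 and UBN2 as its nearest, at 0.17 to 0.20, with log2 folds in HAQ/- of 0.54, 0.03 and 0.51. CASP10 had NLRC5, CNP and PARP10, at 0.07 to 0.12, CASP4 had DGKH, DUXAP10 and ITGB8, at 0.03 to 0.06, and CASP8 had ANKIB1, ADGRL2 and OXR1, at 0.02 to 0.04. CASP1 had no gene nearer than SOCS3 at 0.41, followed by MIR210HG and TINAGL1. With 3 folds per gene such likeness is a description of these libraries.

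**Figure D5:**
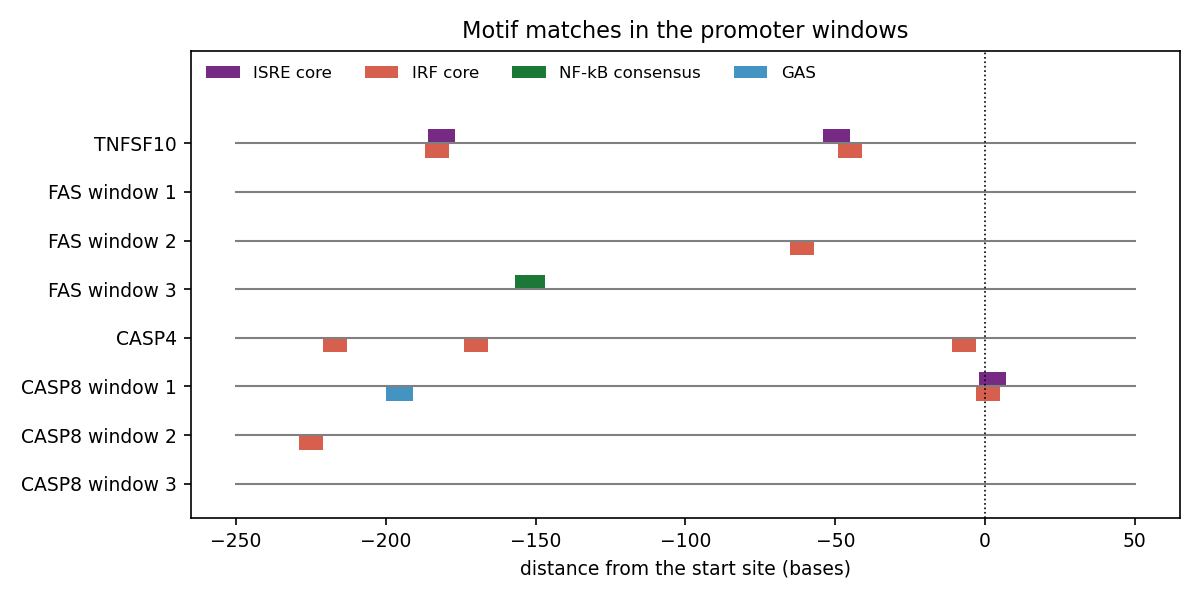
Matches to 4 motifs (coloured blocks) along the 8 promoter windows of TNFSF10, FAS, CASP4 and CASP8, as distance in bases from the start site of each window (horizontal axis, dotted line at 0). TNFSF10 has an ISRE core paired with an IRF core at 2 places, and FAS window 1 and CASP8 window 3 have no block.

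The map of motif matches covers the windows printed above and those named by position. Of these 4 genes, TNFSF10 and CASP8 are those with an ISRE core in a window, and FAS has the NF-kB consensus. A match describes letters in these 300 bases and no binding was measured.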

How the data were processed

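RNA-seq was measured in 6 libraries of SKOV3 cells, 1 for each of 3 lines with and without cGAMP. The authors deposited estimated counts (expected counts) per Ensembl gene, without normalization. The submitters' processing notes name STAR, RSEM and the build GRCh38 (hg38), and versions and annotation are not given in the sources used here. Values were rounded to whole counts, and 0 columns were left over. Strand use in the counting is not given either, so overlapping genes on the opposite strand cannot be told apart.

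The analysis covered the 15126 of 60498 genes whose mean count was 10 or more. Library sizes were scaled with TMM in edgeR 4.0.16 (R 4.3.3). Before folds were computed, counts below 3 were raised to 3, and intervals are Wilson intervals at 95%. Treatment was tested over all genes with edgeR's quasi-likelihood F test with the line as a block (2 residual degrees of freedom). The difference between the lines with a WT allele and HAQ/- was tested as an interaction (1 residual degree of freedom). P-values carry Benjamini-Hochberg adjustment at 0.05. With 1 library per line and treatment, the treatment test measures the spread between 3 lines, and the test of the difference that between the lines with a WT allele, with HAQ/- assumed to vary like them. In both tests edgeR moderates the spread of a gene with that of all genes tested, so the p-values rest in part on other genes. Neither test covers the spread between cultures. DESeq2 1.42.0 was an alternative. Other steps used matplotlib 3.10.9, scipy 1.17.1, pandas 2.3.3 and numpy 2.4.6 in Python 3.11.15.

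The genes named are the 9 members, STING1 and the pathway genes that passed the treatment test. Up to 2 genes with the mean log2 fold furthest from 0 in each of 6 lists are named too. So are the 3 genes nearest to each member raised in at least 1 line. Genes with few counts (FASLG, CASP5, CASP14), ACTA2, STAMBPL1, RHOBTB2 and CARD16 were named after their values were seen. Cell type markers come from lists set in advance. Folds are given for every epithelial marker examined, and the other markers named in the text were picked after their values were seen. Of the lists set in the design, 2 pathway genes and 1 marker are not reported here, and all counts of lists leave them out. Members and lists were chosen with earlier results of these data known. Positions are from GENCODE 44 (GRCh38), which holds 56434 of the 60498 identifiers, and promoter windows from RefSeq (GRCh38.p14).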

Additional observations from a re-analysis of the deposited data

Results flagged for a closer look

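The response to cGAMP differed between the lines with a WT allele and HAQ/- for FAS. The difference in log2 fold was 2.37, from 209 to 1154 normalized counts in WT/HAQ and 176 to 1299.6 in WT/- against 188 to 231 in HAQ/-. It passed edgeR's test of the interaction, in which HAQ/- has no replicate. The edited lines were taken from single clones, so the haplotype, the clone and its STING1 level cannot be told apart.

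The log2 folds of TNFRSF10A and TNFRSF10B differed in sign between lines, while neither gene reached 1.5-fold in a line. The log2 fold of TNFRSF10A was -0.42 in WT/HAQ and 0.40 in HAQ/-. That of TNFRSF10B was 0.23 in WT/- and -0.30 in HAQ/-. Neither gene passed edgeR's treatment test (adjusted p = 0.905 and 0.911) or its test of the difference (adjusted p = 0.657 and 0.452), and the pairs of lines themselves were not tested.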

How the results depend on the processing

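Of 198 recounts of genes under an alternative, 175 stayed within 1.5 times the count reported. At a fold of 1.2, 1 of the 9 genes was lowered in HAQ/-, 1 in WT/- and 2 in WT/HAQ, against 17.2%, 22.4% and 26.6% of all genes, and 6 were raised in HAQ/-, against 15.4%. At that fold 2 were lower in the WT/- and 6 in the HAQ/- control library than in the parent's (24.8% and 21.0% of all genes), and at a fold of 2 the HAQ/- control library had 1 lower (3.87%). In edgeR's treatment test without blocks, 0 of the 9 and 0 of the other 38 pathway genes were higher (0.383% of all genes) and 0 of those 38 lower (0.0264%). Without a filter on low counts 5 of the 9 were higher, as were 4 of the other pathway genes, against 3.41% of all genes, and 5 of the other pathway genes were lower, against 3.15%. DESeq2 called 4 of the other pathway genes lower, and 3.85% of all genes. Leaving out each line in turn gave 0 to 6 of the 9 higher and 0 to 1 lower, and 0 to 4 of the other genes higher and 0 to 6 lower, while all genes went from 0% to 8.65% higher and from 0% to 8.66% lower. In the test of the difference, a mean count of at least 1 gave 1 other pathway gene with a smaller response in HAQ/-, against 1.67% of all genes. The cause of these changes was not tested. A fold of 1.5 whose interval also excludes no change, chosen after seeing the data, moved no count by over 1.5 times. Of 480 log2 folds of single genes in a line, 477 stayed within their counting interval, and 0 called folds changed sign. The median log2 fold of all genes was furthest from 0 with total counts alone in WT/-, at -0.06. TNFRSF10B in WT/HAQ went from -0.02 to 0.01 under a mean count of at least 50. With a floor of 10 counts the log2 fold of CASP1 in HAQ/- was 0.91, against 1.91.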
